A study of Mus musculus with 6 samples.

Results

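Levels of 5 β-cell disallowed genes, ZFP36L1, LMO4, MAF, SMAD3 and LDHA, were read in each of 6 RNA sequencing libraries labelled as islets of 12-week-old mice. The 5 genes were taken by name from the 13702 listed in the count table, and all 5 were found. The 3 KO libraries are from β-PCKO mice, which lack pyruvate carboxylase in their β-cells, and the 3 WT libraries are from their wild-type littermates. The driver of the β-cell deletion and the strain are not given in the sources used here. Replicate numbers follow the labels. Whether the 3 libraries of a group are 3 animals is not stated, so the spread behind each p-value may be technical.

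Disallowed genes are genes that most tissues express and that mature β-cells keep at a low level. The best known encode lactate dehydrogenase A (LDHA) and the monocarboxylate transporter SLC16A1, whose low levels steer pyruvate into the mitochondria and keep circulating lactate or pyruvate from triggering insulin release. Others encode regulators of growth and of transcript stability, and several become more abundant when β-cells lose their mature identity. Pyruvate carboxylase, the enzyme deleted in the KO mice, draws on the same mitochondrial pyruvate, and the comparison asks how these genes differ without it.

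The table gives human gene identifiers for libraries labelled mouse, so each value counts the reads that were given a human gene's name. The WT libraries held 35906, 377876 and 135441 counts, given here and below in the order of replicates 1, 2 and 3, and the KO libraries 224898 to 225561. A single count is thus worth 27.9 CPM (counts per fixed library total) in WT replicate 1 and 2.65 CPM in WT replicate 2. The label islet could not be checked by its defining markers, since 12 of 22 endocrine markers, INS, GCG and SST among them, were not listed under these names. The marker CHGA had 1 count over all libraries, and MAFA, NEUROD1 and PAX6 carried nearly all the counts of the 10 that were listed. Together they made up 0.345%, 0.0161% and 0.0657% of the WT libraries and 0.325% to 0.374% of the KO libraries. Markers of squamous epithelium, all 24 of them listed, made up 20.1% of WT replicate 2 and at most 0.134% of any other library. Markers of fibrous connective tissue (14 of 16 listed) made up 1.49% of WT replicate 3, 0.588% of WT replicate 1, 0.115% of WT replicate 2 and 0.541% to 0.556% of the KO libraries. Markers of mesenchymal cells (8 of 9 listed, with PDGFRA and MYLK also on the disallowed list below) made up 0.0153% to 0.0849% of the WT libraries and 0.0382% to 0.0458% of the KO libraries, and those of endothelial cells (8 of 10 listed) 0.00836% to 0.0118% and 0.00578% to 0.00931%. Markers of acinar and ductal cells, 6 of 13 listed, made up 0.00960% to 0.0251% in WT and 0.000889% to 0.00222% in KO. Most of these counts were of the keratin genes KRT19 (0, 56 and 13 in WT, 2, 1 and 4 in KO) and KRT7 (9, 2 and 0 in WT, 0 in KO). The acinar gene PRSS1 had 1 count over all libraries, so these shares say little about acinar cells. In whole islets, fewer cells of a type and less RNA per cell cannot be told apart. The KO libraries were close to identical, with a chi-square per degree of freedom of 1.96 to 2.02 between pairs, where 1 is sampling noise, against 18.1 to 35.4 between WT pairs. The rank (Spearman) correlation of WT replicate 1 was 0.544 to 0.546 with the KO libraries, and 0.453 and 0.494 with WT replicates 2 and 3. That of WT replicate 3 was 0.655 to 0.657 with KO and 0.569 with WT replicate 2, and that of WT replicate 2 with KO was 0.562 to 0.566. By rank, WT replicates 1 and 3 were thus closer to KO than to the other WT libraries. PC, the deleted gene, was seen 4 times, all in WT replicate 2, which is too little to check the labels.

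The promoters of the mouse genes give the sequence context of the members. RefSeq windows on GRCm38.p6, the build the labels name as mm10, run from 250 bases before to 50 bases after each start, and 4 of the 5 genes matched by symbol. Shown are the windows of ZFP36L1 and LMO4, both lower in KO by the test below, and of LDHA, the metabolic enzyme that did not pass. Capitals mark matches, on either strand, to the motifs named after them. They are Zfp36l1 (chr12:80112964-80113263, minus strand), Lmo4 (chr3:144205206-144205505, minus strand, the most upstream of its windows) and Ldha (chr7:46845554-46845853, plus strand, the more upstream window).
Zfp36l1: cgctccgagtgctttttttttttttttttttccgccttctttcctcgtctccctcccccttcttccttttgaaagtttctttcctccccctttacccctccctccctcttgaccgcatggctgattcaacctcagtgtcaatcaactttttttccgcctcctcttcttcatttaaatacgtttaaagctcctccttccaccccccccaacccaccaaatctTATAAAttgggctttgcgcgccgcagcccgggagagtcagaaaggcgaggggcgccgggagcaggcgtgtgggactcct
Lmo4: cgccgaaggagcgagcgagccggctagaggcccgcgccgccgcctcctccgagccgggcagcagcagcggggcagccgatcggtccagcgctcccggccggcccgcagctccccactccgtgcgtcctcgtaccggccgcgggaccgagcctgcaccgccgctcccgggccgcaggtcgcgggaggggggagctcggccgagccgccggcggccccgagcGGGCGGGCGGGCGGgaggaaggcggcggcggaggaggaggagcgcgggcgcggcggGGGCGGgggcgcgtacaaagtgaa
Ldha: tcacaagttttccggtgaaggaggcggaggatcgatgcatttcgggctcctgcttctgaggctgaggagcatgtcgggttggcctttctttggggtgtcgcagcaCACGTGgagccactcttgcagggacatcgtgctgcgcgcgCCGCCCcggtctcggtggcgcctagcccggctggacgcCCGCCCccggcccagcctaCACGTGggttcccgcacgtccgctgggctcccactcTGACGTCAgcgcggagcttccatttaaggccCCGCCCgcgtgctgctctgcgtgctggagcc

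The 3 windows had different motif content. Zfp36l1 held 1 TATA box (TATAAA, in 13.6% of 32851 RefSeq windows of this length) and no other motif searched. Lmo4 held 4 matches to the GC box (GGGCGG, in 35.7% of windows), 3 of which form a run where each overlaps the next. Ldha held 3 GC boxes, 2 copies of the E-box CACGTG (7.15% of windows) and 1 cAMP response element (TGACGTCA, 1.79% of windows). The Smad3 window held 2 GC boxes. None of the windows of these 4 genes matched the AP-1 element TGACTCA (5.2% of windows), the SMAD palindrome GTCTAGAC (0.213%) or the Maf recognition element in the form searched (0.387%). A match is a description of these letters and not a measured binding site.

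All 5 genes were lower in every KO library than in any WT library, and 3 of them, ZFP36L1, LMO4 and MAF, passed the test. ZFP36L1 showed the widest gap, at 594 ± 235 CPM in WT and 62.8 ± 7.2 in KO (SD, n = 3 each). The test was edgeR's quasi-likelihood test on genotype, fitted to the 2560 genes that passed a filter and adjusted by Benjamini-Hochberg at 0.05. That filter kept genes that reached a set CPM on library totals in at least 3 libraries. Across those genes 3.01% passed as lower and 5.04% as higher in KO, and in 12.3% every KO value lay below every WT value. The median log2 fold change (KO minus WT) was −2.36 over the 5 genes and −0.14 over all genes tested. The 5 genes were named with earlier results of these data known, so these counts are a description and not evidence that disallowed genes stand apart. LMO4, MAF and SMAD3 reached the level of the filter in the WT libraries only, the group where they are high. Their place among the genes tested thus rests on that group. Without the filter 0 of the 5 genes passed in edgeR. CPM below are on library sizes scaled by the trimmed mean of M values (TMM) unless a share of library totals is named.

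**Figure D1:**
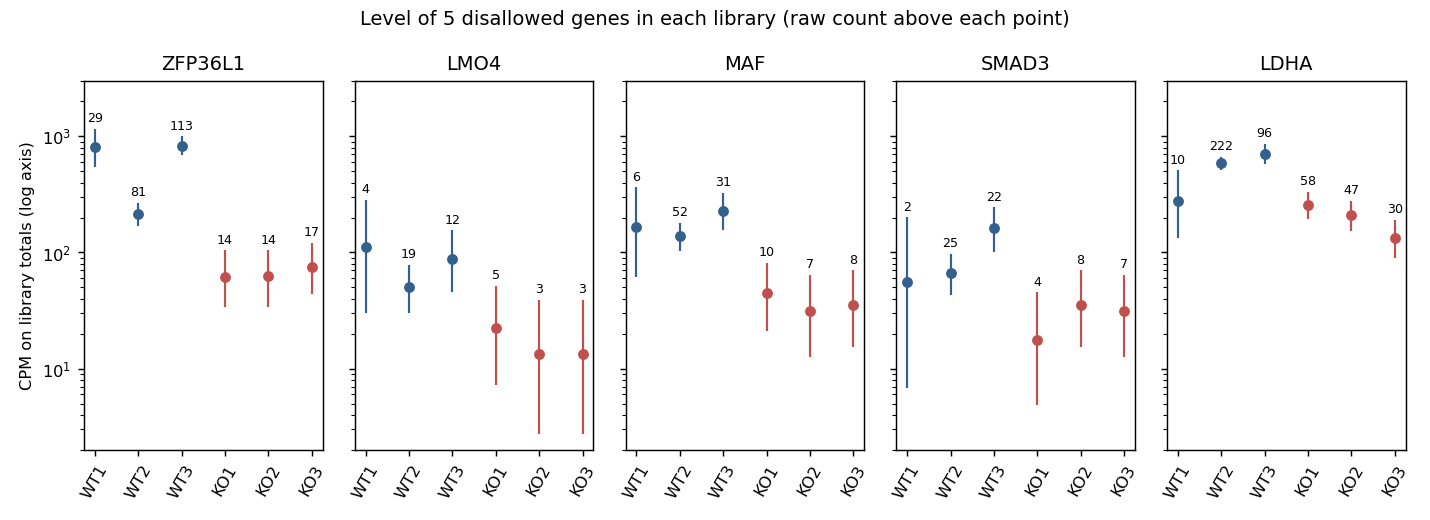
Level of each of the 5 genes in each library, as CPM on library totals (log axis), with exact 95% intervals that cover counting error only; the raw count stands above each point. The KO libraries lie below the WT libraries for each gene, but for LDHA WT replicate 1 (10 counts) lies close to KO replicate 1 (58 counts).

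ZFP36L1 (ENSG00000185650) encodes an RNA-binding protein that recognises AU-rich elements and promotes decay of the messenger RNAs that carry them. The WT libraries held 29, 81 and 113 of its reads, and the KO libraries 14, 14 and 17. Scaled, these were 746, 324 and 713 CPM in WT and 58.9, 58.4 and 71.1 CPM in KO. WT replicate 2 was the lowest of the WT libraries and still stood well above every KO library. ZFP36L1 fell by 3.22 ± 0.56 (SE) on the log2 scale (edgeR adjusted p 0.0237). The mouse gene lies at chr12:80107760-80113013 in GRCm38.p6.

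LMO4 (ENSG00000143013) encodes a protein made of LIM domains that bridges transcription factors to their cofactors. It was the gene with the fewest counts of the 5, at 4, 19 and 12 in WT and 5, 3 and 3 in KO. Scaled, the WT values were 102.9, 76.0 and 75.7 CPM and the KO values 21.0, 12.5 and 12.5 CPM. The groups did not overlap, but WT replicate 1 rests on 4 counts, whose exact 95% interval runs from 30.4 to 285 CPM on library totals. LMO4 fell by 2.36 ± 0.59 (SE) on the log2 scale (edgeR adjusted p 0.0449).

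MAF (ENSG00000178573) encodes c-MAF, a basic leucine zipper transcription factor of the large MAF family, which also holds the islet factor MAFA. Reads assigned to MAF numbered 6, 52 and 31 in WT and 10, 7 and 8 in KO. The scaled WT levels of 154, 208 and 196 CPM were close to one another although the libraries differed widely in depth. The KO levels were 42.1, 29.2 and 33.5 CPM, all below the WT range. MAF fell by 2.41 ± 0.61 (SE) on the log2 scale (edgeR adjusted p 0.0450). Markers of myeloid cells, which also express MAF, were listed for 9 of 12 genes and moved in the same direction, at 0.0122% of WT replicate 2, 0.0177% of WT replicate 3 and 0.00133% to 0.00178% of the KO libraries. In WT replicate 1 all of them were at 0, but a single count there is 0.00279% of the library, more than their whole share in KO. Of the 9 listed markers PTPRC, which other leukocytes share, had the most counts, at 0, 27 and 11 in WT and 1, 1 and 4 in KO. The part of myeloid cells in the level of MAF was not tested.

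SMAD3 (ENSG00000166949) encodes a receptor-activated SMAD, which carries signals of TGF-β and activin receptors to the nucleus. SMAD3 reads numbered 2, 25 and 22 in WT and 4, 8 and 7 in KO. Scaled, these were 51.5, 99.98 and 139 CPM against 16.8, 33.4 and 29.3 CPM. The groups did not overlap, and the lowest WT value, that of replicate 1, came from 2 counts. At a log2 fold change of −1.93 ± 0.64 (SE), SMAD3 did not pass (edgeR adjusted p 0.0900).

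LDHA (ENSG00000134333) encodes the lactate dehydrogenase subunit that favours the making of lactate from pyruvate. With 463 counts over all libraries it was the most deeply counted of the 5 genes. The WT libraries held 10, 222 and 96 counts and the KO libraries 58, 47 and 30, or 257, 888 and 606 CPM against 244, 196 and 125 CPM. WT replicate 1 lay just above KO replicate 1, while WT replicates 2 and 3 were well above all KO libraries. At a log2 fold change of −1.65 ± 0.58 (SE), LDHA did not pass (edgeR adjusted p 0.102).

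Set singly against the pooled KO counts, the WT libraries agreed for some members and not for others. For ZFP36L1 the TMM-scaled ratio was 11.9 (95% counting interval 7.18 to 19.4), 5.16 (3.54 to 7.60) and 11.4 (7.97 to 16.4) in WT replicates 1, 2 and 3. WT replicate 2 thus gave a smaller ratio than the other WT libraries. For MAF the ratios were 4.43 (1.48 to 11.1), 5.96 (3.63 to 10.02) and 5.61 (3.21 to 9.91), and for LMO4 they were 6.71 (1.56 to 22.6), 4.95 (2.24 to 11.51) and 4.93 (1.99 to 12.3). These intervals overlap widely within each of the 2 genes. For SMAD3 the ratio in WT replicate 1 was 1.94 (0.219 to 8.05), so a difference was not detectable at that depth, against 3.77 (1.99 to 7.24) and 5.24 (2.71 to 10.2) in the others. For LDHA it was 1.37 (0.640 to 2.59) in WT replicate 1, against 4.71 (3.79 to 5.88) and 3.22 (2.45 to 4.21). The interval lay above 1 for 3 of the 5 genes in WT replicate 1, where squamous and fibrous markers made up 0.0808% and 0.588% of counts, and for 5 of 5 in WT replicate 2 and in WT replicate 3. Among all 2560 tested genes the same held for 15.1%, 39.3% and 35.9% in WT replicates 1, 2 and 3. For ZFP36L1, LMO4 and MAF the ratio in WT replicate 1 was 4.43 to 11.9, from 29, 4 and 6 counts there. The part of squamous and fibrous tissue in the results of any of the 5 genes was not tested.

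**Figure D2:**
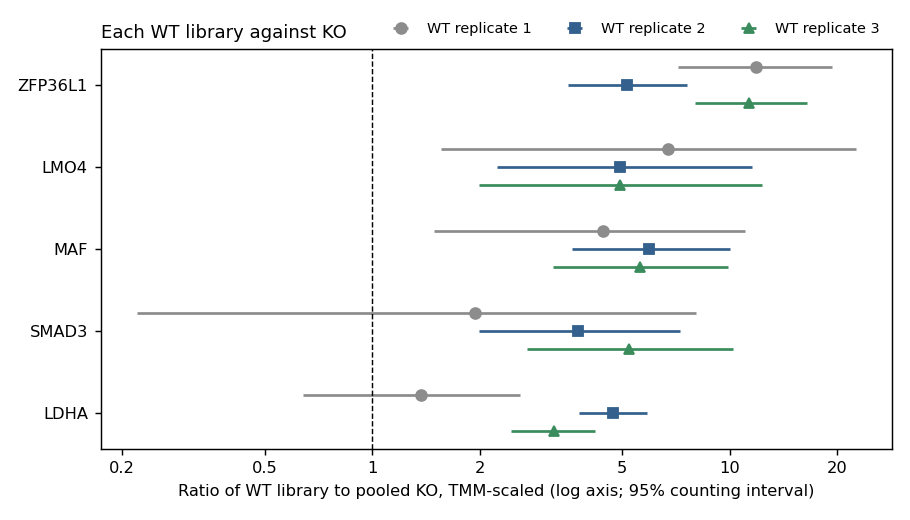
Ratio of each WT library to the pooled KO libraries for the 5 genes (log axis, TMM-scaled), with 95% intervals that cover counting error only and a dashed line at a ratio of 1. In WT replicate 1 the intervals of SMAD3 (0.219 to 8.05) and LDHA (0.640 to 2.59) span 1, and all other intervals lie above it.

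Position among the genes of the same library needs no scaling between libraries but depends on depth. It had the same order of groups. ZFP36L1 had a higher count than 94.9% to 98.7% of listed genes in the WT libraries and than 85.5% to 87.3% in KO. For MAF the ranges were 91.0% to 92.5% and 78.9% to 82.6%, and for LMO4 76.1% to 90.3% and 66.9% to 74.5%. For SMAD3 they were 81.2% to 88.5% and 71.2% to 80.1%. LDHA differed least, at 94.8% to 98.8% in WT and 91.1% to 94.6% in KO. These positions move with the number of genes that have a count, which was 3294, 12193 and 8298 in the WT libraries and 7617 to 7676 in KO. In WT replicate 1 any single count lay above the highest KO position of LMO4 (74.5%). For LMO4 the order in that library was thus set by depth.

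Shares within a gene family compare genes of one library and so need no scaling. For MAF the partner MAFA was chosen with its values known, so the share is a description with no test. MAF made up 27.3%, 91.2% and 66.0% of the counts of MAF and MAFA in WT replicates 1, 2 and 3, and 3.80%, 3.55% and 3.40% in the KO libraries. The mean shares were 61.5% ± 32.2 and 3.59% ± 0.201 (SD, n = 3 each). The β-cell factor MAFA went the other way in counts, with 253, 190 and 227 in KO and 16, 5 and 16 in WT. MAFA did not pass in edgeR (log2 fold change 2.61 ± 0.89 SE; adjusted p 0.0990), while DESeq2 and limma-voom both called it higher in KO. A lower level of MAF and a higher level of MAFA in KO both enter the share.

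LDHA made up 90.9%, 79.9% and 99.0% of LDHA and LDHB counts in WT, against 81.7%, 90.4% and 76.9% in KO. The groups overlapped, with a difference in means of 6.91 percentage points (exact two-sided permutation test over libraries, n = 3 each, p = 0.4). LDHB, the heart-type subunit, had 1, 56 and 1 counts in WT and 13, 5 and 9 in KO. ZFP36L1 made up 96.7%, 56.2% and 79.6% of the counts of ZFP36, ZFP36L1 and ZFP36L2 in WT and 53.8%, 37.8% and 58.6% in KO, and SMAD3 made up 66.7%, 28.7% and 44.9% of SMAD2 and SMAD3 counts against 22.2%, 38.1% and 46.7%. Both pairs of groups overlapped (exact permutation test, n = 3 each, p = 0.2 and 0.5). LMO4 made up 67.9% to 80% of LMO1 to LMO4 counts in WT and 30% to 55.6% in KO, from 5 to 28 family counts per library (exact permutation test, n = 3 each, p = 0.1, the smallest that 3 against 3 allows). With these 4 shares adjusted together the lowest p was 0.4. Family members have similar sequence, and no source used here says how reads were divided among them.

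**Figure D3:**
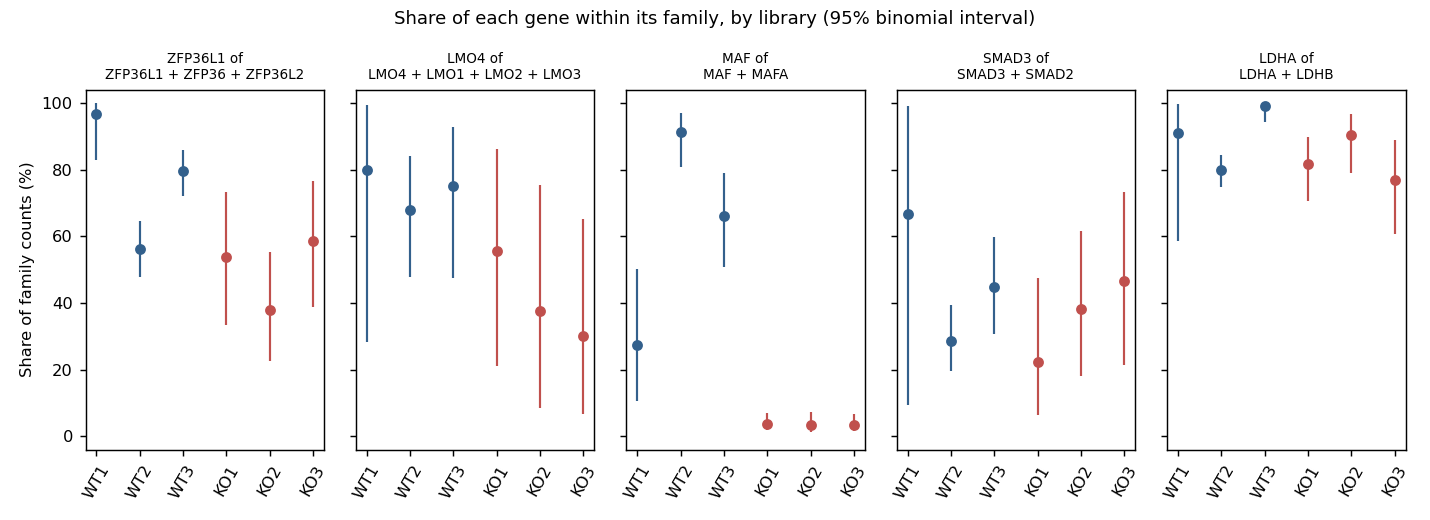
Share of each of the 5 genes in the summed counts of its named family members, by library (percent, with exact 95% binomial intervals that cover counting error only). The share of MAF was 27.3% to 91.2% in WT and 3.40% to 3.80% in KO, while the shares of LDHA, SMAD3 and ZFP36L1 overlapped between groups.

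The 5 genes were set in a wider list of 27 disallowed genes. It was written from general knowledge of the class, with earlier results of these data known. Of the 27 genes, 25 were listed and 9 were tested. Of those tested, 3 passed as lower in KO, against a background of 3.01%, and 6 did not pass. The 3 are ZFP36L1, LMO4 and MAF, all from the 5 named genes. This count is thus a description and not evidence about the list. LMO4 and MAF reached the level of the filter in the WT libraries only. The 4 tested genes outside the 5 did not pass in edgeR, DESeq2 or limma-voom (0 calls, and 0 at an unadjusted p under 0.05 in edgeR), and their median log2 fold change was −0.75. YAP1, the transcriptional coactivator of the Hippo pathway, had 0, 118 and 64 counts in WT, against 24, 18 and 29 (log2 fold change −1.63 ± 0.93 SE; edgeR adjusted p 0.265). REST, the repressor of neuronal genes, had 0, 48 and 17 against 9, 13 and 16 (−1.08 ± 0.84 SE; edgeR adjusted p 0.400). Both were at 0 in WT replicate 1 and highest in WT replicate 2. PDGFRA, a growth factor receptor of mesenchymal cells, had 5, 19 and 3 counts against 12, 12 and 14, and IGFBP4, which encodes a binding protein of insulin-like growth factors, had 6, 6 and 15 against 22, 9 and 12. Their log2 fold changes were −0.31 ± 0.72 and −0.41 ± 0.80 (SE; edgeR adjusted p 0.794 and 0.748), each smaller than its standard error.

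Of the other listed genes, 11 had at least 10 counts but were left out by the filter, among them HK1 with 119 counts over all libraries. The filter asks for a set CPM in at least 3 libraries. Among these 11 genes, the interval of the pooled WT to KO ratio lay above 1 for 8 of the 10 with counts in both groups. It spanned 1 for CXCL12 and ZYX. It lay above 1 in 71.8% of the 4577 such genes in the whole table, so the share in the list is near the background. SLC16A1, the lactate and pyruvate transporter that is the classic disallowed gene beside LDHA, had 0, 19 and 22 counts in WT and 6, 9 and 2 in KO, a ratio of 3.86 (2.15 to 7.25). Its 0 in WT replicate 1 allows up to 3 counts, so that library says little. HK1 and HK2, the low-Km hexokinases that β-cells hold down in favour of glucokinase, had 1, 101 and 4 against 5, 7 and 1 counts, and 0, 14 and 9 against 1, 2 and 4. The HK1 ratio of 13.1 (7.32 to 25.3) rests on WT replicate 2, which held 101 of its 106 WT counts. NDRG2 likewise had its 20 WT counts in WT replicate 2 alone and 0 in KO, and was at least 10.7-fold higher in the pooled WT libraries by the floor of 3 counts over the KO libraries. CD302 and FAM13A had 28 and 25 WT counts, most of them in WT replicate 3, and ratios of 3.45 (1.73 to 7.26) and 4.45 (2.01 to 10.8). GSTA4 had a ratio of 2.70 (1.40 to 5.37), MYLK, a gene of smooth muscle contraction, of 2.05 (1.06 to 4.03), and CAT, the catalase gene, had 10 WT counts and 1 KO count (16.0, 2.28 to 695). The WT counts were 0, 1 and 9 for CAT, so most came from WT replicate 3, and 0, 21 and 6 for GSTA4, most from WT replicate 2. These intervals treat pooled reads as independent and do not hold the spread between the WT libraries. In WT replicate 1, 14 of the 25 listed genes had 0 counts. In WT replicate 2 that number was 1, in WT replicate 3 it was 4, and in the KO libraries it was 5 to 7.

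**Figure D4:**
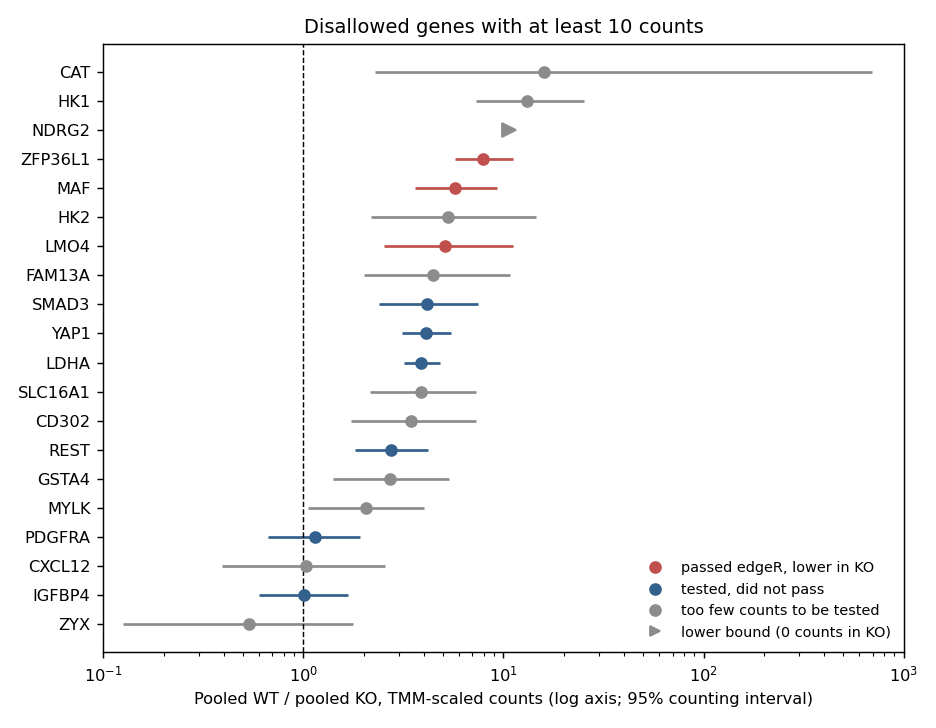
Pooled WT to KO ratio (log axis, TMM-scaled) of the 20 disallowed genes with at least 10 counts, with 95% intervals that cover counting error only. Red marks genes that passed edgeR, blue those tested that did not pass, and the arrowhead a lower bound. Grey marks those left out by the filter, which the legend calls too few counts. ZFP36L1, MAF and LMO4 are red, and PDGFRA, IGFBP4, CXCL12 and ZYX have intervals that span 1.

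Genes that act with the 5 members were read from lists of their families and pathways. In the ZFP36 family ZFP36L2 had 1, 27 and 22 counts in WT, against 10, 17 and 12 (log2 fold change −0.86 ± 0.68 SE; edgeR adjusted p 0.407), and ZFP36 had 0, 36 and 7 against 2, 6 and 0 and was not tested. Among 9 LIM-only genes and partners, 2 were tested, LMO4 and its cofactor gene LDB1. LDB1 had 9, 19 and 4 counts in WT and 79, 55 and 57 in KO. On the CPM scale WT replicate 1, at 232, lay within the KO range of 229 to 332, and LDB1 did not pass (log2 fold change 1.47 ± 0.79 SE; edgeR adjusted p 0.240).

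In the TGF-β and SMAD pathway 27 of 28 genes were listed and 13 tested, of which none passed in edgeR (0, and 4 before adjustment at p under 0.05). DESeq2 called SMAD3 lower and CTGF higher, and limma-voom called CTGF higher. CTGF, a matrix protein gene that TGF-β induces in many cells, had 1, 3 and 24 counts in WT, against 108, 110 and 114 (log2 fold change 2.78 ± 0.84 SE; edgeR adjusted p 0.0710). ACVR2A, which encodes an activin receptor, had 14, 27 and 28 against 151, 129 and 141 (1.53 ± 0.56 SE; edgeR adjusted p 0.114). SMAD2, the closest relative of SMAD3, had 1, 62 and 27 against 14, 13 and 8 (−1.70 ± 0.75 SE; edgeR adjusted p 0.173), while SMAD4, the shared partner of both, had 250 ± 47.3 CPM in WT and 219 ± 27.7 in KO. The median log2 fold change of the 13 genes was −0.81, with 9 of them below 0, against 53.2% of all tested genes.

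Around LDHA, 25 of 28 genes of lactate and pyruvate handling were listed and 4 tested, of which none passed in edgeR (0, and 1 before adjustment at p under 0.05); DESeq2 called LDHA lower and limma-voom called none. PKM, the pyruvate kinase gene, had 6, 191 and 25 counts in WT, against 53, 53 and 34 (log2 fold change −0.92 ± 0.70 SE; edgeR adjusted p 0.393). PDP1, which encodes the phosphatase that activates pyruvate dehydrogenase, and DLD, which encodes a subunit of that complex, had log2 fold changes of −1.08 ± 0.72 and −1.13 ± 0.83 (SE; edgeR adjusted p 0.331 and 0.372). PDHA1, another subunit gene, was not tested, with 29 of 30 WT counts in replicate 2.

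The 5 genes varied together over the 6 libraries to different degrees. The Pearson correlation of log2(CPM + 1) was 0.97 between LMO4 and MAF, 0.95 between ZFP36L1 and LMO4 and 0.94 between ZFP36L1 and MAF, and it was lowest, 0.64, between ZFP36L1 and LDHA. The 6 points share the contrast of genotypes and 3 near-identical KO libraries, so these values are a description. Between 18 and 30 of the tested genes reached 0.95 with each member, so such likeness was not rare. The genes most like ZFP36L1 were ZMIZ1, SOS1 and IDE (0.995, 0.99 and 0.98), and those most like LMO4 were ZSWIM6, REEP3 and FKBP3 (0.99, 0.97 and 0.97). LONP2, HSPA2 and SNX1 were most like MAF (0.99 each), SETD7, PCNX and SPTLC1 most like SMAD3 (0.99, 0.99 and 0.98), and SNX3, ASH1L and RPL21 most like LDHA (0.99, 0.98 and 0.98). Of these 15 genes IDE, REEP3, FKBP3, HSPA2, PCNX and SPTLC1 passed as lower in KO in edgeR, against 3.01% of all tested genes. The 15 were picked for likeness to genes that are lower in KO in the same libraries, so such calls follow from the choice.

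The direction of all 5 genes held in each of 16 other settings, while the calls did not. These settings reuse the same 6 libraries, in which every KO value lay below every WT value. They are thus not independent checks of direction. ZFP36L1 passed in 10 of the 16, and in 9 of the 14 with at least 2 libraries on each side, with log2 fold changes from −3.48 to −1.94. It passed without WT replicate 1, 2 or 3 (edgeR adjusted p 0.00625, 0.0451 and 0.0416), and it lost its call without KO replicate 1, 2 or 3 (0.174, 0.155 and 0.132). LMO4 and MAF passed in 5 of 16 settings each. Both lost their call without WT replicate 2 (edgeR adjusted p 0.0739 and 0.0617), without WT replicate 3 (0.0635 and 0.0550) and without any 1 KO library (0.292 to 0.372). On library totals the adjusted p of each was 0.0658. SMAD3 and LDHA passed in 2 of 16 settings each, which were the fit without WT replicate 1 (edgeR adjusted p 0.0362 and 0.0182) and DESeq2 (0.0462 and 0.0466). Against WT replicate 1 alone their log2 fold changes were −0.86 and −0.37.

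**Figure D5:**
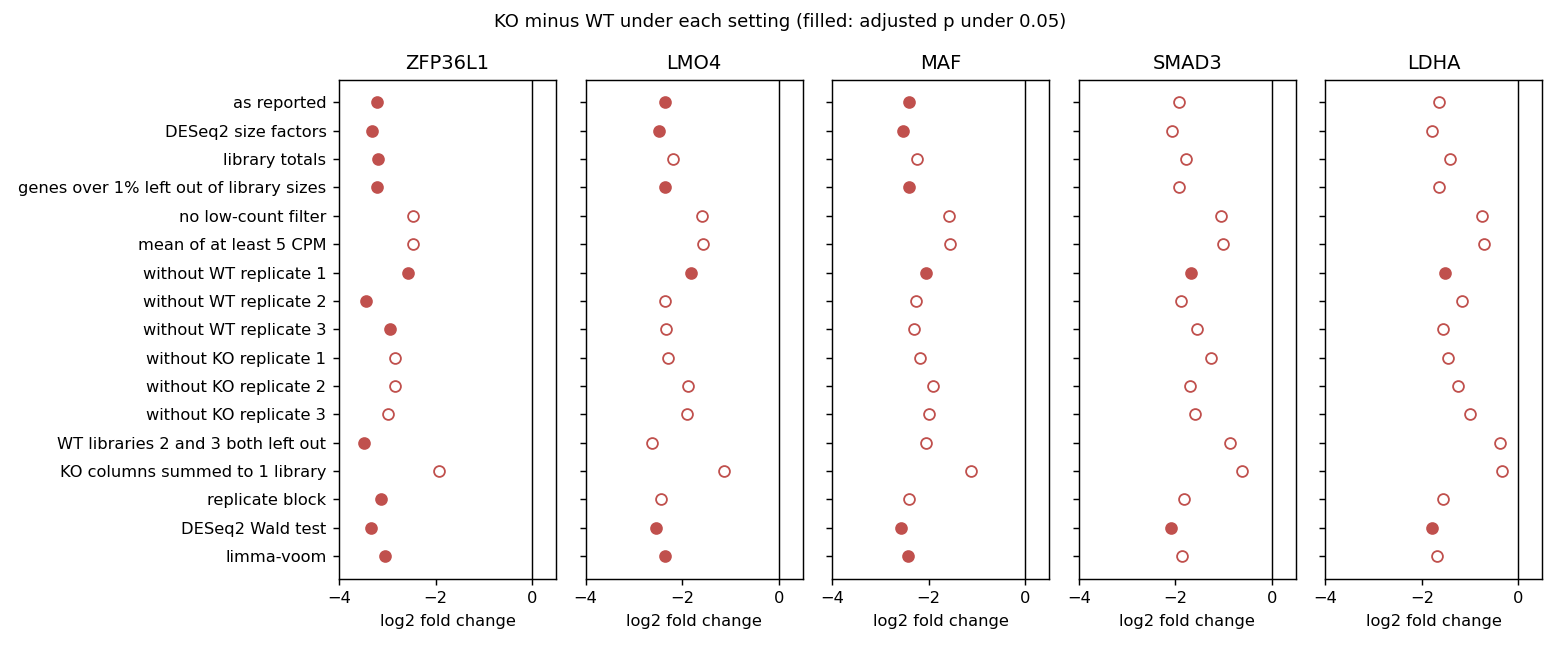
Log2 fold change (KO minus WT) of each gene as reported and under the 16 other settings, with filled points where the adjusted p was under 0.05. All points lie below 0; ZFP36L1 is filled in 10 of the 16 other settings, LMO4 and MAF in 5, and SMAD3 and LDHA in 2.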

How the data were processed

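Per the labels' protocols, ribosomal RNA was removed from total islet RNA before directional library construction and paired-end sequencing. Tools named in the submitters' processing notes, with no role or order, are cutadapt 1.9.3 and edgeR 3.16.5, beside HISAT2 2.0.4 and HTSeq 0.9.1, with mm10 as the build. The values used are whole-number counts per gene and library, not normalized, as deposited by the authors and per the file headers. A further 6 per-sample columns, which the headers call normalized, were not used, and 1 row without an identifier was left out. Of 13702 identifiers 0 match the mouse gene name table, and 11747 symbols match a mouse symbol in any case. No source used here says how reads reached human names.

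The tests ran in R 4.3.3 with edgeR 4.0.16 (filterByExpr, TMM scaling, two-sided quasi-likelihood F test with genotype as the single term, Benjamini-Hochberg at 0.05), and the script was tested on simulated data. A standard error is the log2 fold change divided by the root of F. Intervals are exact Clopper-Pearson at 95%, a count of 0 allows up to 3 counts, and both cover counting error only. Permutation tests used scipy 1.17.1. Named genes were the 5 members, listed disallowed genes with at least 10 counts, up to 3 of each family or pathway list by smallest p, and the 3 tested genes most correlated with each member; ZFP36, SMAD4, LDHB and PDHA1 were named after their values were seen. Some items are not reported here, and the share of MAF was taken over MAF and MAFA after the values were seen. The members and lists were chosen with earlier results of these data known. Alternatives included DESeq2 1.42.0 and limma-voom (limma 3.58.1).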

Additional observations from a re-analysis of the deposited data

How the results depend on the processing

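The count of 206 changed genes (129 higher, 77 lower) became 447 with DESeq2, 312 with limma-voom, 439 when no filter was applied, 385 with genes kept at 5 CPM or more, 766 when WT replicates 2 and 3 were both dropped, and 0 once the KO columns were summed (301 at an unadjusted p under 0.05 in edgeR). It ran from 3 (without KO replicate 1) to 1527 (without WT replicate 1) when single libraries were left out. Of the wider disallowed list 3 genes had changed. That count was 1 on library totals, 0 without a filter, 0 at a mean of 5 CPM, 0 with KO summed (where 0 had an unadjusted p under 0.05 in edgeR), 5 with DESeq2, 2 (1 higher, 1 lower) when WT replicates 2 and 3 were both left out, and 0 to 6 with single libraries left out. Among the 5 named genes the corresponding counts were 1, 0, 0, 0 and 5, with 1 when WT replicates 2 and 3 were both left out and 0 to 5 with single libraries left out. Fits with WT replicates 2 and 3 left out or KO summed have 1 library on one side, whose spread is taken to equal that of the rest. For the settings without a filter and at 5 CPM more genes were tested (13702 and 8340), and the estimates moved as well. The median log2 fold change of the 5 genes went from −2.36 to −1.58 without a filter and −1.55 at 5 CPM. The number of the 5 at an unadjusted p under 0.05 in edgeR went from 5 to 1 in both. The cause of these and the other changes was not tested.

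Scaling moved the median of all tested genes from −0.14 on the log2 scale to −0.26 with DESeq2 size factors and to −0.00081 on library totals. The 5 genes stayed below that median in both, at −3.33 to −1.79 and −3.19 to −1.41. With WT replicates 2 and 3 left out the median was 0.85, and without a filter it was −1.06, above which SMAD3 and LDHA lay (−1.04 and −0.75).

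With the replicate number as a block 137 genes changed (106 higher, 31 lower), 1 of the disallowed list and 1 of the 5 genes (ZFP36L1, log2 fold change −3.14). No source used here says that the numbers pair the libraries. Deviations of same-numbered libraries from their group means correlated at −0.00045, −0.017 and 0.019. No WT library correlated best with the KO library of its own number. The KO libraries were close to identical (chi-square per degree of freedom 1.96 to 2.02), which leaves little deviation to correlate. These values thus cannot decide whether the libraries were paired.

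Depth limits SMAD3 and LMO4 in WT replicate 1 (2 and 4 counts) and LMO4 in the KO libraries (3 to 5 counts).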
